A study of Homo sapiens with 2 samples.

Results

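The heat shock and DNAJ genes encode the molecular chaperones of the cell and, with HSF1 and HSF2, transcription factors that act on them. Members were chosen by array name: DNAJ, HSPA, HSPB, HSPH, HSP90, HSPC, HSPD or HSPE names, older names of the same genes, and HSF1 and HSF2. Pseudogenes and the cofactor genes HSPBP1 and HSPBAP1 were left out. The rule found 134 probes of 83 genes among 30482 genes and other names on the array. Of these 83, 11 carried an HSPC clone name that belongs to another kind of gene and 1 was the readthrough transcript DNAJC25-GNG10. The other 71 genes (118 probes) were 43 DNAJ genes, 26 HSP genes and both HSF genes, and these are called members from here on. Of the 71, 60 had a probe that passed the filter on dim signals and 11 did not.

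PC3, an established metastasis-derived prostate cancer cell line, was transfected with Non-T siRNA (a non-targeting control) or with 1 of 2 SUB1 siRNA duplexes. A second transfection followed after 24 h, and RNA was taken 72 h after the first. SUB1 encodes a transcriptional coactivator. The design asked which transcripts differ when SUB1 is reduced. Control RNA carried Cy3 and knockdown RNA carried Cy5, on 1 dual-colour Agilent array for SUB1 siRNA 1 and 1 for SUB1 siRNA 2, both on 1 slide. Dyes were not swapped, and dye and siRNA cannot be told apart at any probe. Both ratios have Non-T siRNA cells as the control, so likeness between the siRNAs is not given as a result and each siRNA's own values stand side by side. The labels do not say if 1 Non-T extract served both arrays. Every value for a single siRNA comes from 1 array, without a biological replicate, and whether cells came from separate cultures is not stated in the labels.

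The targeted gene was checked first, and ratios below are log2 values of knockdown over control. SUB1 stood at -3.30 (siRNA 1) and -3.26 (siRNA 2), 10.2% and 10.4% of its control signal. Each array held 43376 gene spots, of which 54.3% were well above background in Cy3 on both arrays, and 67.2% (siRNA 1) and 64.5% (siRNA 2) in Cy5. No gene spot was saturated. Over the 209 kept probes spotted 10 times, the median SD of the log2 ratio among spots was 0.078 with siRNA 1 and 0.074 with siRNA 2, and the largest was 0.174 and 0.164. This SD is the technical error within an array. It holds no spread between cultures. Of the markers checked, 5 of 5 epithelial genes (KRT8, KRT18, KRT19, EPCAM and CDH1) were detected. Of the prostate luminal markers, the probe for the RefSeq transcript of KLK3 was not well above background, although 2 other KLK3 probes were detected. Of the fibroblast markers 2 of 4 (COL1A1 and DCN) and of the leukocyte markers 2 of 4 (CD3E and CD14) were detected, while COL1A2, COL3A1 and PTPRC were not. The detected fibroblast markers stood at -0.19 (DCN) and 0.66 (COL1A1) with siRNA 1 and at -0.11 and 0.45 with siRNA 2, and their part in the members' values was not tested.

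Chaperones bind unfolded or partly folded proteins and keep them from aggregating. HSP70 proteins (HSPA) do so in cycles of ATP hydrolysis, which J-domain proteins (DNAJA, DNAJB and DNAJC) start and HSP110 proteins (HSPH1, HSPA4 and HSPA4L) reset by exchanging the nucleotide. HSP90 proteins mature kinases and steroid receptors, HSPD1 with its lid HSPE1 folds proteins inside mitochondria, and small HSPs (HSPB) hold unfolded proteins without ATP. When unfolded proteins accumulate, HSF1 binds heat shock elements and activates several of these genes, whereas the endoplasmic reticulum (ER) has its own response that raises ER chaperones. Tumour cells, those of the prostate included, often carry high chaperone levels.

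Over the 60 members that passed the filter, the median ratio was 0.04 for each siRNA, beside 0.02 and 0.02 over all 19218 genes. Ratios were above 0 for 36 of 60 members with siRNA 1 and for 35 (58.3%) with siRNA 2, beside 54.1% and 53.6% of all genes. Among those above 0 with each siRNA, HSPA1L, HSPB6 and DNAJC28 passed the filter only through Cy5, which favours such values. Each gene is given here by its brightest probe. With siRNA 1, DNAJC12 was at least 1.5-fold higher, 1 of 60 members beside 2.43% of all genes. HSP90AA1, HSPD1 and DNAJC19 were at least 1.5-fold lower, 3 of 60 beside 3.02%. With siRNA 2, DNAJB9, HSPA1A and DNAJA1 were at least 1.5-fold higher, 3 of 60 beside 3.51%, and DNAJC10 was at least 1.5-fold lower, 1 of 60 beside 4.23%. The call for DNAJC10 was lost with the authors' log2 ratios (-0.55), with Feature Extraction's processed signals (-0.46), with the mean of its probes (-0.37) and without loess (-0.38). With siRNA 1, the call for DNAJC19 was lost with the processed signals (-0.54), the mean of its probes (-0.36) and without loess (-0.40), and that for HSPD1 without loess (-0.42).

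Few members reached a 2-fold difference, the limit used in the methods of the study. With siRNA 1, 0 of 60 members were at least 2-fold higher (0.208% of all genes) and 1 was at least 2-fold lower, HSP90AA1 (0.609%). With siRNA 2, 2 members were at least 2-fold higher, HSPA1A and DNAJB9 (0.614%), and 0 were at least 2-fold lower (1.07%). HSP90AA1 lay on the limit itself at 2.00-fold. The members nearest to the limit without reaching it were HSPD1 at 1.80-fold with siRNA 1 and DNAJA1 at 1.81-fold with siRNA 2. DNAJA1 with siRNA 2 did reach it with the authors' log2 ratios (1.01) and without loess (1.19). Each of these shares rests on 0 to 3 genes of 60, and none is read as different from that of all genes.

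**Figure D1:**
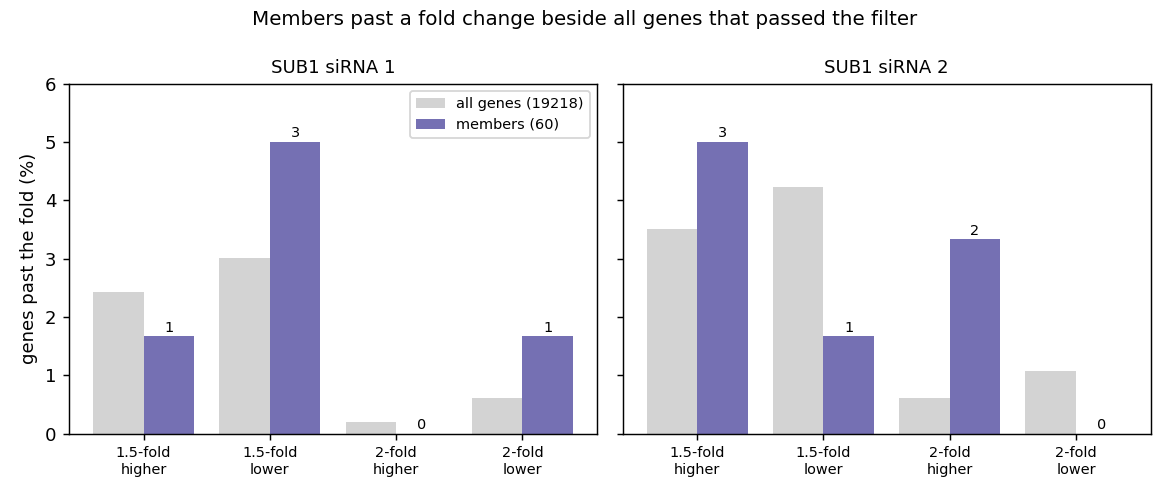
Share of genes (%) at least 1.5-fold or 2-fold higher or lower than in Non-T siRNA cells, for all 19218 genes that passed the filter (grey) and for the 60 members (purple, with the number of members above each bar), by siRNA. The members' bars stand for 0 to 3 genes each, and the 2 members at least 2-fold higher with siRNA 2 are HSPA1A and DNAJB9.

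The mean of both siRNAs was tested against 0 with limma, with Benjamini-Hochberg adjustment over all 19218 genes. In this test 0 of 60 members passed an adjusted p of 0.05, and 1 gene of the array did (0.0052%), SUB1. At an unadjusted p under 0.05 there were 12 of 60 members, or 20.0%, beside 20.9% of all genes. They were DNAJC12, DNAJB9, HSPA1A, DNAJA1 and DNAJC27 above 0, and HSP90AA1, HSPD1, DNAJC10, DNAJC22, DNAJC9, DNAJB5 and HSPA4L below 0. The lowest adjusted p of a member was 0.113, that of DNAJC12. With 2 arrays and 1 kind of control the test leaves out the spread among control cultures. No member is therefore called changed by a test, and fold values below are descriptions of these arrays.

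HSP90AA1, which encodes the stress-inducible HSP90 of the cytosol, had the largest lower value of any member. Its normalised log2 intensity was 14.49 in Non-T siRNA cells and 13.49 with siRNA 1 on the first array, and 14.27 and 13.79 with siRNA 2 on the second. SUB1 siRNA cells were lower on each array, by log2 ratios of -1.00 (technical SD 0.075 among 10 spots) and -0.48 (SD 0.051). All 4 probes were below 0, at -1.13 to -0.76 with siRNA 1 and at -0.65 to -0.29 with siRNA 2. Those probes lie at chr14:101619206-101619265, chr14:101617145-101617198, chr14:101617856-101618204 and chr14:101619916-101619975 on hg18, the build named in the array files. The mean over both siRNAs was -0.74 (moderated SE 0.16), with an adjusted p of 0.136 in limma.

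The other HSP90 genes differed less. HSP90AB1, the constitutive cytosolic HSP90, had log2 ratios of -0.21 and -0.13, and its 3 probes lay from -0.39 to -0.15 and from -0.24 to -0.13. HSP90B1, the HSP90 of the ER, had -0.26 and -0.15 at its brightest probe. Its second probe stood further from the control, at -0.84 and -0.41. Without loess the ratios turned to 0.06 and 0.15 for HSP90AB1 and to 0.17 and 0.30 for HSP90B1, in a setting that put the median of all genes at 0.13 and 0.12. No direction is given for HSP90B1 with either siRNA or for HSP90AB1 with siRNA 2, while HSP90AB1 with siRNA 1 lay below the median of all genes in every setting.

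HSPD1, the mitochondrial HSP60 chaperonin, had a normalised log2 intensity of 15.47 in Non-T siRNA cells and 14.63 with siRNA 1, and of 15.11 and 14.87 with siRNA 2. The log2 ratios were -0.85 and -0.24 at chr2:198059626-198059685 (hg18), and -0.96 and -0.61 at a second, dimmer probe at chr2:198070208-198070267. HSPE1, the HSP10 lid of the same chaperonin, had 15.38 and 15.40 on the first array and 15.21 and 15.30 on the second. Its single probe (chr2:198076048-198076187, hg18) thus gave ratios of 0.02 and 0.09. With siRNA 1 the pair stood 0.85 below and 0.02 above the control on the log2 scale, on the same array and in the same RNA. Directions of HSPD1 with siRNA 2 and of HSPE1 with siRNA 1 depended on the processing.

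HSPD1 and HSPE1 stand head to head on chromosome 2, and the bases between their starts are shown because the pair shares them while the ratios differed. In the RefSeq promoter table (GRCh38.p14) the HSPE1 start lies at 197500379 on the plus strand and an HSPD1 start at 197500274 on the minus strand, with 104 bases between them at chr2:197500275-197500378, printed on the plus strand. A second HSPD1 start in the table lies at 197499840.
HSPD1-HSPE1: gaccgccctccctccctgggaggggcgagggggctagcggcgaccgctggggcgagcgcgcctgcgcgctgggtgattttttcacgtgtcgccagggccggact

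HSPA1A, the main stress-inducible HSP70, was among the members with the largest differences between the siRNAs, and its order with DNAJB9 depended on the processing. Its normalised log2 intensity was 13.35 in Non-T siRNA cells and 13.72 with siRNA 1, and 13.09 and 14.20 with siRNA 2. The log2 ratio was 0.37 for siRNA 1 and 1.11 for siRNA 2 (chr6:31893470-31893529, hg18), and siRNA 2 minus siRNA 1 was 0.73. The other probes had 0.15 and 0.87 (chr6:31892924-31892983), and -0.24 and 0.33 (chr6:31892373-31892432). With siRNA 2 all 3 probes lay above 0, from 0.33 to 1.11, and with siRNA 1 they lay on either side of it. The mean over both siRNAs was 0.74 (moderated SE 0.20, adjusted p = 0.161 in limma).

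No probe carried the name HSPA1B, the neighbouring gene whose protein is nearly the same. Of the 3 HSPA1A probes, 2 list the HSPA1B transcript among their targets, and these are the dimmer ones. Signal of both genes cannot be told apart there. The promoters of both genes are shown as 98 bases each, starting at positions -136 and -135 from the start, with the letters GAANNTTC of a heat shock element in capitals; they are identical at 94 of the 98 bases. They lie at chr6:31815407-31815504 and chr6:31827603-31827700 on the plus strand (GRCh38.p14).
HSPA1A: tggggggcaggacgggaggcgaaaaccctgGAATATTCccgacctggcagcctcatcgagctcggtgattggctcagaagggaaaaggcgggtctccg
HSPA1B: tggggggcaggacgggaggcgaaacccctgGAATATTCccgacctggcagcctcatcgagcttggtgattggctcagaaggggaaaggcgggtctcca

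The 10 HSP70 genes that passed the filter, HSPA1A included, had medians of 0.02 (siRNA 1) and 0.04 (siRNA 2). HSPA8, the constitutive HSP70 of the cytosol, had 0.23 and -0.09, with 4 probes from 0.22 to 0.32 and from -0.13 to 0.03. HSPA5 (BiP), the HSP70 of the ER, had -0.23 and 0.05 at one probe and 0.21 and -0.01 at the other. HSPA9, the HSP70 of mitochondria, had -0.15 and -0.04, and turned to 0.09 and 0.22 without loess. As reported, with loess, both HSPA5 probes and HSPA9 stayed within 0.23 of the control. Without loess HSPA5 stood at 0.28 with siRNA 2. HSPA1L, expressed mainly in testis, was well above background only in Cy5, with nominal bounds of 1.06-fold with siRNA 1 and 1.19-fold with siRNA 2. Such a bound compares the Cy5 signal with the dim Cy3 signal or, if higher, the lowest Cy3 signal that counted as above background. It is open to dye bias. A gene that passes the filter only through Cy5 is also favoured to lie above the control, so no direction is read from it.

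The 3 HSP110 genes had log2 ratios of -0.34 and 0.29 (HSPH1), -0.22 and -0.21 (HSPA4), and -0.36 and -0.22 (HSPA4L, named here after its values were seen). The dimmer probe of HSPA4 lay nearer to the control, at -0.04 and -0.06. HSPH1 stood below the control with siRNA 1 and above it with siRNA 2. Its intensity was 13.01 in Non-T siRNA cells and 12.67 with siRNA 1, and 12.68 and 12.97 with siRNA 2. The difference of 0.63 between the siRNAs has no test, since each siRNA has 1 array. HSPB1 (HSP27), the small HSP of stressed cells, had -0.37 and 0.08, and its 3 probes lay at -0.37 to -0.19 with siRNA 1 and at 0.07 to 0.14 with siRNA 2. Of the 7 small HSP genes 3 passed the filter. HSPB6 was above background only in Cy5, with nominal bounds of 1.17-fold with siRNA 1 and 1.09-fold with siRNA 2, and no direction is read.

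**Figure D2:**
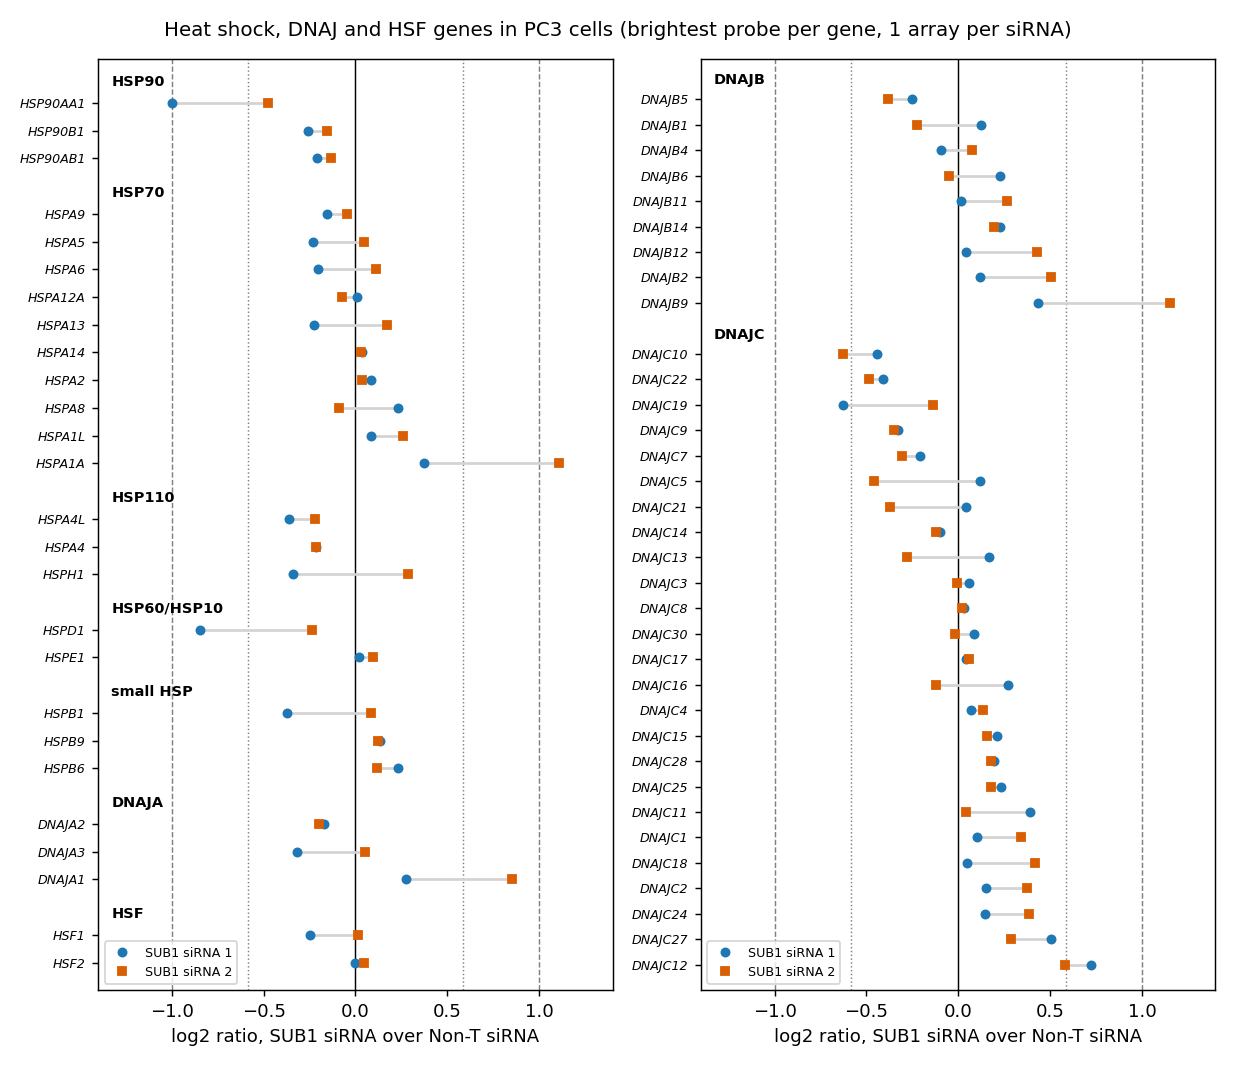
Log2 ratio, knockdown over control (horizontal axis), for the 60 members that passed the filter, 1 row per gene and grouped by family, with siRNA 1 as circles and siRNA 2 as squares joined by a grey line. Dotted lines mark 1.5-fold and dashed lines 2-fold; most genes lie between the dotted lines, with HSP90AA1 at -1.00 with siRNA 1 and HSPA1A and DNAJB9 at 1.11 and 1.15 with siRNA 2 furthest out.

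DNAJB9 (ERdj4), a J-domain protein of the ER that is raised in ER stress, had the largest value above the control, 1.15 with siRNA 2, with HSPA1A close at 1.11. HSPA1A was the higher of the 2 with the authors' log2 ratios and without loess (1.49 against 1.37). The normalised log2 intensity of DNAJB9 was 9.01 in Non-T siRNA cells and 9.45 with siRNA 1, and 8.87 and 10.02 with siRNA 2. The ratios were 0.43 and 1.15 at its single kept probe (chr7:108001751-108001810, hg18), so siRNA 2 was further from the control, by 0.72. The mean was 0.79 (moderated SE 0.20), with an adjusted p of 0.150 in limma.

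DNAJA1, a cytosolic partner of HSPA8 and HSPA1A, had 12.74 in Non-T siRNA cells and 13.01 with siRNA 1, and 12.42 and 13.27 with siRNA 2. The log2 ratios were 0.27 and 0.85 (chr9:33028754-33028813, hg18). Its other probes had -0.12 and 0.93, and 0.26 and 0.85, so that with siRNA 2 all 3 probes lay within 0.85 to 0.93, whereas with siRNA 1 one probe was below 0. DNAJB1 (HSP40), the classic inducible partner of HSP70, had 0.13 and -0.23.

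DNAJC12, a cytosolic J-domain protein that assists the aromatic amino acid hydroxylases, had 9.39 in Non-T siRNA cells and 10.11 with siRNA 1, and 9.27 and 9.85 with siRNA 2. The ratios of 0.72 and 0.58 (1.65-fold and 1.49-fold) at chr10:69235524-69241319 (hg18) lay just past and just under the 1.5-fold limit. With siRNA 2 DNAJC12 passed this limit with the authors' log2 ratios (0.71), with the processed signals (0.72) and without loess (0.79). Without background correction it lay on the limit (0.59).

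DNAJC10 (ERdj5), an ER disulfide reductase with a J domain, had 11.13 in Non-T siRNA cells and 10.69 with siRNA 1, and 10.80 and 10.17 with siRNA 2. One probe (chr2:183332204-183332263, hg18) gave -0.44 and -0.63 and the other (chr2:183351320-183351379) gave -0.66 and -0.11. Which siRNA stood further from the control thus depended on the probe. DNAJC19, a J-domain protein of the mitochondrial inner membrane, had 10.56 and 9.94 on the first array and 10.38 and 10.24 on the second, ratios of -0.63 and -0.13. Its dimmer probe had -0.10 and 0.25.

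**Figure D3:**
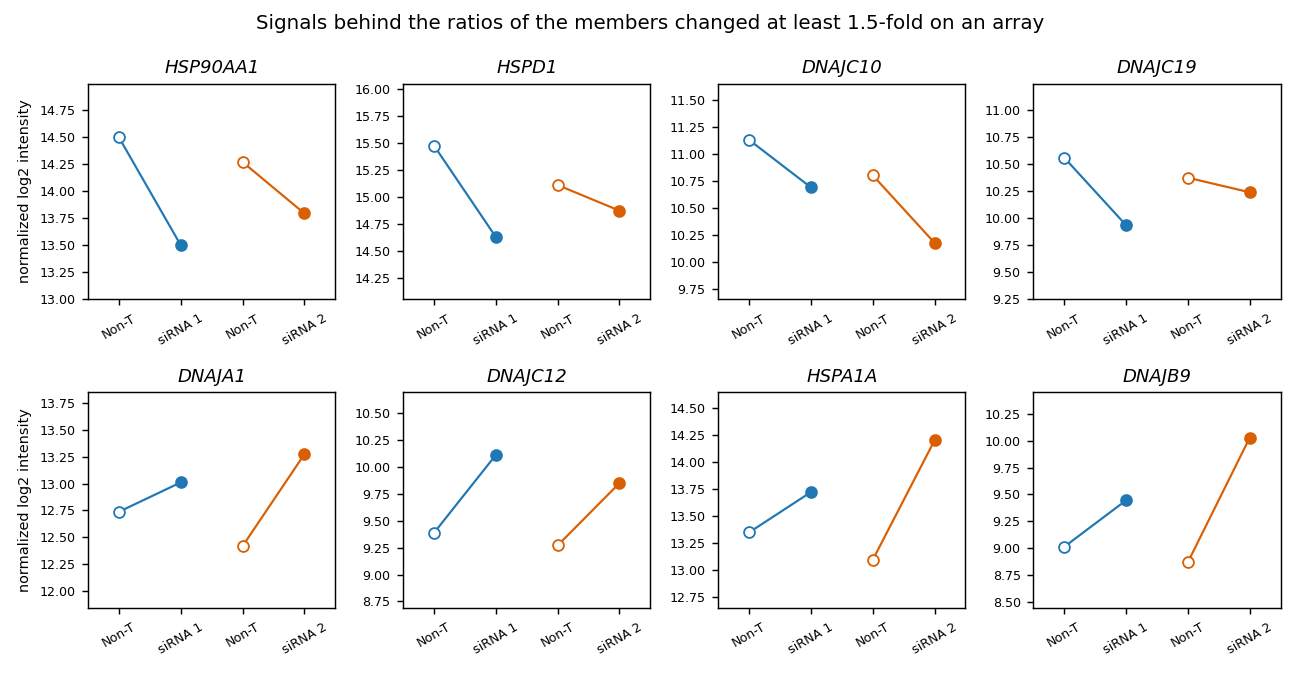
Normalised log2 intensity (vertical axis, each panel spanning 2 log2 units) of the 8 members at least 1.5-fold changed on an array, for Non-T siRNA (open) and SUB1 siRNA (filled) on the siRNA 1 array (blue) and the siRNA 2 array (orange), 1 value each. The lines of HSP90AA1, HSPD1, DNAJC10 and DNAJC19 slope down and those of DNAJA1, DNAJC12, HSPA1A and DNAJB9 slope up, by differing amounts on each array.

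The largest differences in the other direction, lower with siRNA 2 than with siRNA 1, were those of DNAJC5, DNAJC13 and DNAJC21. DNAJC5, the cysteine string protein of secretory vesicles, had 0.12 and -0.46. DNAJC13, an endosomal J-domain protein, had 0.17 and -0.28, and DNAJC21, which acts in ribosome assembly, had 0.04 and -0.37. The differences were -0.58, -0.45 and -0.42, with no test. DNAJC21's second probe had 0.08 and 0.05 and so did not show this difference. That probe was above background only in Cy5, with a nominal bound of 1.06-fold with siRNA 1 and none with siRNA 2.

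Further J-domain genes are given here, named after their values were seen. DNAJC9, a histone chaperone, had -0.33 and -0.35, DNAJC22, a membrane J-domain protein, had -0.41 and -0.49 with -0.32 and -0.33 at its dimmer probe, and DNAJB5 had -0.25 and -0.38. None of these 3 reached 1.5-fold on an array. DNAJC27, a small GTPase with a J domain, had 0.50 and 0.29, and DNAJC11, of the mitochondrial membrane, had 0.39 and 0.04 with 0.01 and -0.35 at its dimmer probe. DNAJB12, an ER membrane protein, had 0.04 and 0.43, with its dimmest probe at -0.20 and -0.05, and DNAJC2, a ribosome-bound J-domain protein, had 0.15 and 0.37.

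HSF1, the main activator of heat shock genes, had log2 ratios of -0.25 (siRNA 1) and 0.01 (siRNA 2), and HSF2, a related factor, had 0.00 and 0.05 at its brighter probe. Neither reached 1.5-fold. A message level says nothing of HSF1 activity, which is set mostly on the protein.

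By compartment, the 13 members of the ER had medians of 0.05 with siRNA 1 and 0.18 with siRNA 2, with DNAJB9 at least 1.5-fold higher and DNAJC10 at least 1.5-fold lower with siRNA 2. The 8 of mitochondria had -0.07 and 0.01, with HSPD1 and DNAJC19 at least 1.5-fold lower with siRNA 1. The 12 kept genes of the heat-inducible list had -0.21 and 0.00, with 2 at least 1.5-fold lower with siRNA 1 (HSP90AA1 and HSPD1) and 2 at least 1.5-fold higher with siRNA 2 (HSPA1A and DNAJA1). Over all genes, 3.02% were at least 1.5-fold below the control with siRNA 1, while siRNA 2 had 3.51% above it and 4.23% below, and counts of 1 or 2 genes in a list are not read as different from them. Among the 25 kept DNAJC genes the medians were 0.09 and 0.02, and among the 9 DNAJB genes 0.12 and 0.20.

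Of the 60 members, 26 had several probes past the filter. The probes of a gene spanned a median of 0.21 (log2) with siRNA 1 and 0.17 with siRNA 2, and at most 0.62 and 0.78, and none spanned over 1. Probes lay on both sides of 0 in 6 genes with siRNA 1 and in 10 with siRNA 2. DNAJB6, a J-domain protein that keeps polyglutamine proteins soluble (named after its values were seen), had 3 probes from -0.05 to 0.03 with siRNA 2 and another at 0.73. That probe lies at chr7:156902331-156902390 and the brightest at chr7:156871424-156871483 (hg18). Whether it reads another transcript of the gene was not tested.

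**Figure D4:**
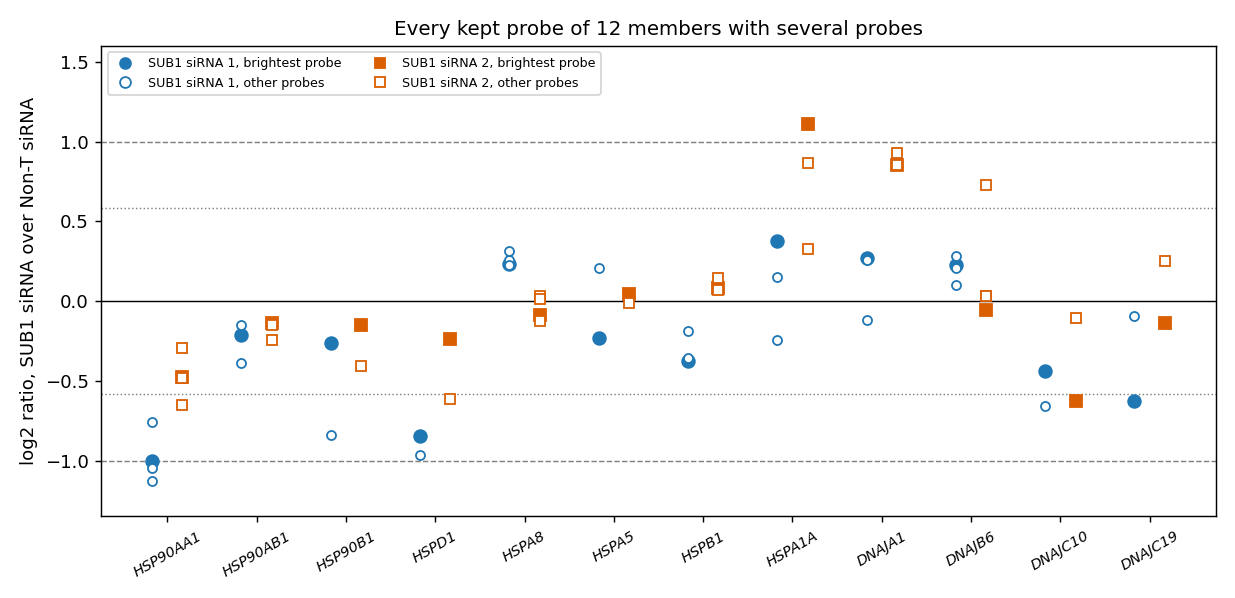
Log2 ratio, knockdown over control (vertical axis), at every kept probe of 12 members with several probes, filled for the brightest probe and open for the others, siRNA 1 as circles and siRNA 2 as squares. The 4 HSP90AA1 probes lie below 0 with each siRNA, while 1 DNAJB6 probe stands at 0.73 with siRNA 2 apart from the other 3.

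Heat shock elements are repeats of the unit GAA or its complement TTC, each unit spaced by 2 bases. The letters of 3 alternating units, read on both strands, were found in 172 of 35116 promoters of the RefSeq table (0.49%, windows from 250 bases before to 50 after each start). By gene, these were 166 of 27305 (0.608%), and 7 of the 63 members in the table (11.1%) held them. The shorter GAANNTTC or TTCNNGAA, which overlaps the longer match, was in 13.5% of promoters. By gene, it was in 16.2% of all genes of the table and in 21 of 63 members (33.3%). A match of the long form is shown for each of the 7 members, because these members' ratios lay on both sides of 0. The matched letters are in capitals, with 8 bases on either side. HSP90AB1, HSPA8 and HSPD1 hold a further match that is not printed, and that of HSPD1 overlaps the printed one. On GRCh38.p14 the printed sites are at chr14:102087112-102087140 (minus strand, HSP90AA1), chr6:44247823-44247851 (plus, HSP90AB1), chr2:197500060-197500088 (minus, HSPD1, before its second start), chr11:123062171-123062199 (minus, HSPA8), chr1:161524458-161524486 (plus, HSPA6), chr7:157336865-157336893 (plus, DNAJB6) and chr9:33025268-33025296 (plus, DNAJA1).
HSP90AA1: gagggttcTTCCGGAAGGTTCgggaggct
HSP90AB1: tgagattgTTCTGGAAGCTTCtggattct
HSPD1: attttctgGAAAGTTCTGGAAccgagcga
HSPA8: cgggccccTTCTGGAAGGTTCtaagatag
HSPA6: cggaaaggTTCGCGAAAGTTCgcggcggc
DNAJB6: agagccgaGAACCTTCGCGAAggtggggc
DNAJA1: gccgggcgGAACTTTCCAGAAcgctcggt

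Members with the long form differed among themselves. With siRNA 1 their log2 ratios were -1.00 (HSP90AA1), -0.85 (HSPD1), -0.21 (HSP90AB1), -0.21 (HSPA6), 0.23 (DNAJB6), 0.23 (HSPA8) and 0.27 (DNAJA1). With siRNA 2 they ran from -0.48 (HSP90AA1) to 0.85 (DNAJA1). HSPA1A, with 1.11 with siRNA 2, holds only the short form in this window, and so does DNAJB1. A match is a description of the letters, and binding was not measured. The ER stress element (CCAAT and CCACG spaced by 9 bases), searched after the values were seen, was in 27 of 35116 promoters (0.0769%), among them those of HSPA5 and HSP90B1.

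Other genes of the pathway were described from fixed lists by the same limits, and 0 of their genes passed an adjusted p of 0.05 in limma. The 24 co-chaperones, which load or release clients of HSP70 and HSP90, had medians of -0.08 (siRNA 1) and -0.15 (siRNA 2). With siRNA 1, 1 of them was at least 1.5-fold lower. With siRNA 2, 1 was at least 1.5-fold higher and 1 lower, and 4 of 24 had an unadjusted p under 0.05. The shares over all genes were 3.02% below the control with siRNA 1, 3.51% above and 4.23% below it with siRNA 2, and 20.9% by p, and the counts of this and the following lists are descriptions beside them. STIP1 (HOP), which joins HSP70 to HSP90, had -0.81 and -0.25, BAG3, a nucleotide exchange factor of HSP70, had -0.32 and -0.60, and PTGES3 (p23), an HSP90 cofactor, had -0.43 and -0.20. These 3 also stood out in the list of 10 HSF1 targets, whose medians were -0.07 and -0.02.

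The 14 subunits of the cytosolic chaperonin CCT and of prefoldin had medians of -0.05 and -0.24, with 1 at least 1.5-fold changed, CCT3, at 0.21 and 1.03. TCP1, another CCT subunit, had -0.45 and -0.54, and PFDN6, a prefoldin subunit, had 0.39 and 0.44. Of the 21 ER stress genes, 2 were at least 1.5-fold lower with siRNA 1, and 3 were higher and 1 lower with siRNA 2. The medians were -0.19 and 0.13. DDIT3 (CHOP), a transcription factor raised in ER stress, had 0.17 and 1.10, ERN1 (IRE1), a sensor of unfolded proteins in the ER, had 0.50 and 0.63, and PDIA6, an ER disulfide isomerase, had -0.45 and -1.01.

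The 11 members that did not pass the filter on dim signals were DNAJA4, DNAJB7, DNAJB8, DNAJC5B, DNAJC5G, DNAJC6, HSPA12B, HSPB2, HSPB3, HSPB7 and HSPB8. Several of them are known mainly from testis, brain or muscle. DNAJC28 passed only through Cy5, with nominal bounds of 1.15-fold with siRNA 1 and 1.10-fold with siRNA 2, and no direction is read. HSF2's dimmer probe gave no bound with siRNA 2. The clone-name genes, which are no chaperones, are CWC15, TRMT112, LGALSL, TMEM208, SDR42E1, FMC1, CCDC82, WDR91, NOP16, LINC00652 and LINC00339. Of these 9 passed the filter, at -0.36 to 0.39 with siRNA 1 and at -0.31 to 0.69 with siRNA 2, where the highest was FMC1, a factor of mitochondrial ATP synthase assembly.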

How the data were processed

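RNA of PC3 cells was hybridised to 2 dual-colour Agilent arrays. The authors scanned them with Feature Extraction 9.5.1.1, per the file headers, and deposited spot intensities with local background; they also deposited a log2 ratio per probe after loess with the R package agilp, which was used as an alternative. That table ran as Cy5 over Cy3 (Pearson r with the scanner values across spots 0.958 and 0.970, slopes 1.01 and 1.02, column medians -0.0055 and -0.0069). Probe positions are on hg18 (NCBI36), per the file headers.

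Here mean signals were corrected by normexp (offset 50), control spots were dropped and log2 ratios were normalised by loess with a span of 0.3 (limma 3.58.1, R 4.3.3). Outlier-flagged spots were omitted before averaging the spots of each probe. Probes were kept where a share of spots of 0.5 or more passed Agilent's background flag in 1 channel on both arrays (25673 of 41000). Channel levels are normalised within an array only. Genes were named through RefSeq accession, symbol or synonym (13129 of 19218 kept genes; the rest kept the array's name), and the brightest probe stood for a gene. No test was used for single arrays. The mean of both siRNAs was tested with lmFit and eBayes. The test was also run on simulated data, but recovery is not given here, so the run does not tell how many changes the test missed. The number of arrays limits precision. Members and lists were chosen with earlier results of these data known. Named were SUB1, core members, members at least 1.5-fold changed on an array, the 3 largest differences between siRNAs in each direction, members with probes over 1 apart, clone-name genes, and up to 3 genes of each other list; some genes of these lists are not reported here. Promoters came from RefSeq (GRCh38.p14), where 63 of 71 members matched.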

Additional observations from a re-analysis of the deposited data

Results flagged for a closer look

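HSPH1, an HSP110, and HSPA13, an HSP70 of the ER membrane, had ratios of opposite sign with the siRNAs, each past the largest SD among spots on its own array, a technical error that holds no spread between cultures. HSPH1 stood at -0.34 (log2 ratio, siRNA 1) and 0.29 (siRNA 2), a difference of 0.63. HSPA13 had -0.22 and 0.17, a difference of 0.40, and its dimmer probe had -0.05 and 0.24. The differences between the siRNAs were not tested, since each has 1 array.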

How the results depend on the processing

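Median centring without loess and the processed signals of Feature Extraction raised the median of all genes from 0.02 to 0.13 and 0.14 (siRNA 1) and to 0.12 and 0.17 (siRNA 2), and that of the members to 0.18 and 0.15 and to 0.22 and 0.14. Without loess, 8 members were at least 1.5-fold changed with siRNA 1 and 8 with siRNA 2 (4 and 4 as reported). Over all genes, 7.05% and 9.36% were then higher and 1.4% and 2.16% lower. With siRNA 1, 0 members were 2-fold changed (all genes 0.713% higher and 0.291% lower). An unadjusted p under 0.05 in limma held for 21 of 60 members (all genes 29.7%). With processed signals, 12 of 60 members were at least 1.5-fold higher with siRNA 2 (all genes 17.8%). With siRNA 1, 0 members were then 2-fold changed, beside 5.11% of all genes higher and 1.11% lower. HSP90AA1 also missed 2-fold with the authors' log2 ratios and with the mean of all probes. In each, 0 members were 2-fold changed with siRNA 1 (all genes 0.302% and 0.182% higher, 0.52% and 0.5% lower). With siRNA 2, 3 members, DNAJA1 included, were 2-fold higher with the authors' log2 ratios (all genes 0.77%). With the mean of all probes 1 was (all genes 0.442%). Of 76 recomputed counts and medians, 63 stayed within 1.5 times the reported count or within the median SD among spots of the reported median. In all, 0 members passed an adjusted p of 0.05 in limma under any of the 11 alternatives (lowest 0.0675, without the filter). Over all genes, 0 passed with processed signals, with the authors' log2 ratios, without loess and with median spot signals. In these settings the test missed SUB1 too, so the 0 for the members there tells nothing of them. Of 44 ratios of 22 named members, 29 kept their sign in all 9 alternatives for ratios. HSP90B1, HSP90AB1, HSPA9 and HSF2 turned with each siRNA. HSPE1, HSF1 and DNAJC21 turned with siRNA 1, and HSPD1 (-0.43 to 0.22), HSPA8, DNAJB1 and DNAJC19 turned with siRNA 2. HSP90AA1 stayed within -1.01 to -0.63 and -0.49 to -0.07, HSPA1A within 0.09 to 0.72 and 0.77 to 1.49, and DNAJB9 within 0.37 to 0.63 and 1.14 to 1.46. Family medians changed sign under an alternative for HSP90, HSP60/HSP10 and HSF with each siRNA, for DNAJA, HSP70 and small HSP with siRNA 1, and for HSP110 and DNAJC with siRNA 2. Leaving out an array leaves no residual degrees of freedom, and the values per siRNA stand in its place. No paired analysis was possible because each siRNA has 1 array. Dim probes carry only nominal bounds.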

Other observations

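Chaperones and J-domain proteins outside the naming rule were 8 further genes, all past the filter. TRAP1, the HSP90 of mitochondria, had log2 ratios of -0.37 with siRNA 1 and -0.73 with siRNA 2, and HSCB, a J-domain protein of iron-sulfur cluster assembly, had -0.07 and 0.35. The probes of the readthrough transcript DNAJC25-GNG10, which also list GNG10, had -0.36 and -0.50, and -0.12 and -0.14, while DNAJC25 itself had 0.23 and 0.18 at its own probe.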
